A study of Arabidopsis thaliana with 6 samples.

Results

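Pattern recognition receptors, their co-receptors and the cytoplasmic kinases and G proteins that act beside them were examined as a set of 37 genes of Arabidopsis thaliana, chosen as a list of locus codes and read from a deposited table of 33602 genes. The list holds 8 leucine-rich repeat (LRR) receptor kinases, 8 lysin-motif (LysM) receptors, 2 other ligand receptors, 5 SERK co-receptors with the adaptor SOBIR1, 4 genes of the BIR group, 7 cytoplasmic kinases and 2 G protein subunits. RNA came from leaves of plants 25 days old grown under 16 h light and 8 h dark. One group was the pub2pub4 double mutant, named for the U-box ubiquitin ligase genes PUB2 and PUB4, and the other was wild type. Both groups were labelled mock and held 3 libraries each. The labels name neither the alleles nor the accession, do not describe the mock treatment, and leave unsaid whether each library came from separate plants. All p-values below therefore rest on library-to-library spread, part or all of which could be technical.

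Plants detect microbes at the cell surface. Receptor kinases bind microbial molecules or the plant's own danger peptides, recruit a co-receptor kinase such as BAK1, and pass the signal to cytoplasmic kinases such as BIK1, which act on the oxidative burst, calcium channels and transcription. LysM proteins bind chitin or peptidoglycan, SOBIR1 lends a kinase domain to receptor-like proteins that have none, and BIR proteins hold co-receptors in check. Heterotrimeric G proteins associate with several of these complexes. The comparison asks how transcript levels of this surface machinery differed between mock leaves of the double mutant and of wild type.

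Library totals were 20572341 to 20732799 expected counts in pub2pub4 and 20506882 to 20595904 in wild type. Levels are given as CPM, counts per 1000000 after TMM scaling of the library sizes. PUB2 was at 0.382, 0.543 and 0.588 CPM in pub2pub4 libraries 1, 2 and 3, against 9.40, 10.3 and 7.48 CPM in wild-type libraries 1, 2 and 3. PUB4 was at 2.39, 3.45 and 3.82 CPM in pub2pub4, against 20.4, 23.6 and 19.0 CPM in wild type. For both genes every pub2pub4 library lay far below every wild-type library, as the labels imply. The 5 mesophyll markers summed to 24654 to 28501 CPM in pub2pub4 and 26515 to 28237 CPM in wild type. Of 30 markers of 6 tissues or cell types, 21 were tested and 0 were called by edgeR or limma-voom, while DESeq2 called 1 lower and 1 higher. At an unadjusted edgeR p under 0.05, 4 were lower and 1 was higher. The lower ones were LHCB1.1 of mesophyll (log2 -0.84), KAT1 of guard cells (-0.46), and ATML1 (-0.19) and GL2 (-0.42) of epidermis and trichome. The higher one was the vascular AT3G01680 (0.45). The groups of each of these markers did not overlap. Counts of LHCB1.1 were fractional in all 6 libraries, so some reads were divided between similar sequences and its value is less certain. The other mesophyll markers RBCS1A, CA1, RCA and GAPA had log2 fold changes of 0.05, 0.02, -0.08 and 0.02. Guard cell markers summed to 84.9 to 126 CPM in pub2pub4 and 106 to 122 CPM in wild type, epidermis and trichome markers to 433 to 482 CPM in pub2pub4 and 481 to 517 CPM in wild type, and vascular markers to 255 to 269 CPM in pub2pub4 and 243 to 279 CPM in wild type. Any part of these cell types in the results was not tested. Root markers summed to 0.294 to 8.69 CPM in pub2pub4 and 0.723 to 1.18 CPM in wild type, and those of flower and seed to 0.669 to 0.735 CPM in pub2pub4 and 1.05 to 1.88 CPM in wild type. Most of the highest root sum was PHT1;1, at 8.36, 2.12 and 0.0490 CPM in pub2pub4 libraries 1, 2 and 3. In pub2pub4 1 the other root markers were at 0.191 CPM or less. RHD6, OLEO1 and AT2S3 were at 0 in all 6 libraries. In bulk leaf RNA, fewer cells of a type and less RNA per cell cannot be told apart. Organelle-encoded genes took 0.0898% to 0.131% of counts in pub2pub4 and 0.242% to 0.416% in wild type, and with these genes left out the same 4 members were called as below.

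Of the 37 genes, 35 had enough counts to be tested. In pub2pub4, SOBIR1, BIR1, BIK1 and RIPK fell, 0 members rose, and the remaining 31 were not called (edgeR quasi-likelihood test, Benjamini-Hochberg adjusted p under 0.05 over 19019 genes). The 4 genes are 11.4% of those tested, while 4.46% of all tested genes were called, 1.97% lower and 2.49% higher. At an unadjusted p under 0.05, 16 members (45.7%) were lower and 0 higher, against 9.41% and 10.3% of all tested genes. Neither DESeq2 nor limma-voom called a member higher. Fold changes were negative for 28 of the 35 (80.0%), against 48.5% of all tested genes. The median log2 fold change was -0.21 over the members and 0.01 over all tested genes. In 17 members (48.6%) every pub2pub4 library lay below every wild-type library, and in 0 members did every pub2pub4 library lie above. Groups were separate in 26.2% of all tested genes, 12.7% with pub2pub4 lower and 13.4% with pub2pub4 higher. These counts describe a list whose genes were measured in the same 6 libraries and are not independent of each other.

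The calls depended on single libraries, among the members and over the whole table alike (whole-table range given in the last section). Without pub2pub4 1, BIR1 was the 1 member called. Without pub2pub4 2, wild type 1 or wild type 2, 0 members were called by edgeR, with 16, 14 and 13 lower at an unadjusted p under 0.05, and 1 higher in the fit without wild type 1. Without pub2pub4 3, 6 were called (BIK1, BIR1, FLS2, LYK4, RIPK and XLG2), and without wild type 3, 3 were called (BIR1, SOBIR1 and AT4G08850). All called members were lower in each of these fits. Over the 6 fits the log2 fold change ran from -1.46 to -1.13 for SOBIR1 and from -0.56 to -0.45 for BIR1. It ran from -0.59 to -0.43 for BIK1 and from -0.47 to -0.34 for RIPK. Each of these fits also had fewer libraries, and the part of that in the lost calls was not tested. DESeq2 called 11 members, all lower, including the 4. Over the whole table it called 1460 of 19019 genes, 708 of them lower.

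**Figure D1:**
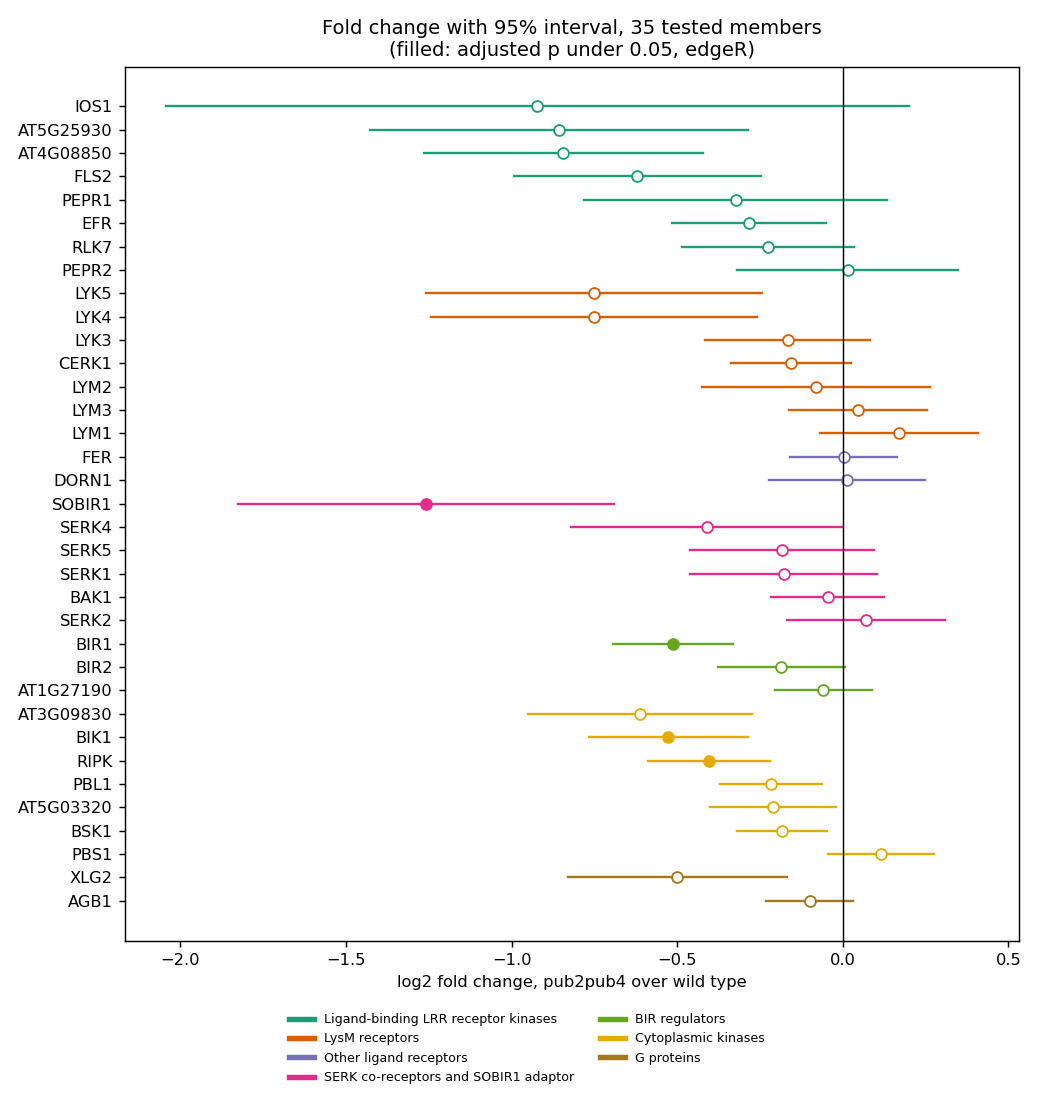
Log2 fold change (x axis, pub2pub4 over wild type) of the 35 tested genes (y axis), grouped and coloured by role, with 95% intervals from the edgeR fit, unadjusted for the number of genes. Filled points mark SOBIR1, BIR1, BIK1 and RIPK, the genes with an adjusted p under 0.05, and 28 of the 35 points lie left of 0.

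The upstream sequences of BIR1, BIK1 and RIPK, 3 of the 4 called genes, are shown as examples of the windows searched. Each is the 250 bases before the annotated gene start in TAIR10.1 (RefSeq), written 5′ to 3′ on the strand of the gene. Capitals mark matches to the W-box hexamers TTGACC or TTGACT, the element bound by WRKY transcription factors, or to GAAATTT, an element bound by the immune regulators SARD1 and CBP60g. Both strands were searched, so GGTCAA and AAATTTC are the same motifs read on the other strand. The window of BIR1 lies at chr5:19607148-19607397 (minus strand), that of BIK1 at chr2:16531277-16531526 (plus strand) and that of RIPK at chr2:2289637-2289886 (minus strand).
BIR1: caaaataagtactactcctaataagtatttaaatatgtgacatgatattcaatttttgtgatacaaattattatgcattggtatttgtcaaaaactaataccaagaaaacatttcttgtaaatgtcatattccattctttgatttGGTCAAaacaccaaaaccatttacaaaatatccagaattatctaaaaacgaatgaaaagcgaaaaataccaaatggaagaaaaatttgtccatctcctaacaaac
BIK1: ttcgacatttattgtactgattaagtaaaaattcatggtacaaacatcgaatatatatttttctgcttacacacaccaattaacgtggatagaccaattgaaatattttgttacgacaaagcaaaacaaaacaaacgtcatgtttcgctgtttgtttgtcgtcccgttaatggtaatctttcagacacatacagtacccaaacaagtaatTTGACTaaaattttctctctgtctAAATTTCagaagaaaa
RIPK: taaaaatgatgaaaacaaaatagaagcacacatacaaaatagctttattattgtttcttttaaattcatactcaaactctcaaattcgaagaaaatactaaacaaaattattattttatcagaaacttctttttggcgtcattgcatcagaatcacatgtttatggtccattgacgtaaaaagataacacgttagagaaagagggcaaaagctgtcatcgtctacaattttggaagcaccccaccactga
BIR1 and BIK1 held 1 W-box each, which began 105 and 40 bases before the gene start, BIK1 also held GAAATTT, and RIPK held neither within this window. Among all 37 members 20 windows (54.1%) held a W-box, against 28.0% of the 18398 protein-coding genes tested. GAAATTT occurred in 4 member windows (10.8%), against 12.8% of tested protein-coding genes. Windows with a W-box included those of FER and BAK1, whose groups of libraries overlapped. No match of one motif overlapped a match of the other in the member windows. A match describes the letters and not a bound site.

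SOBIR1 (AT2G31880, chromosome 2, 13554870 to 13556977, plus strand, TAIR10.1), the adaptor kinase of receptor-like proteins, had the largest fold change of the tested members. It was at 73.4, 113 and 83.2 CPM in pub2pub4 libraries 1, 2 and 3, against 236, 251 and 160 CPM in wild-type libraries 1, 2 and 3. The groups did not overlap, with wild type 3 the lowest wild-type library and still 1.41 times the highest pub2pub4 library. The log2 fold change was -1.26 ± 0.23 (SE), 41.8% of the wild-type level, with an edgeR adjusted p of 0.0435. The call held in 1 of the 6 fits that left out a library, and with no filter on low counts the adjusted p was 0.0685. SOBIR1 shares 478 bases of its span with AT2G31890 (RAP) on the opposite strand. Its expected counts were fractional in all 6 libraries, and their sum with those of RAP was whole in all 6, so some reads were divided between the pair and both values are less certain. The pair together was at 158, 194 and 172 CPM in pub2pub4, against 312, 337 and 243 CPM in wild type, also without overlap. RAP itself was at 84.2, 80.2 and 89.0 CPM in pub2pub4, against 75.8, 86.3 and 82.8 CPM in wild type.

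BAK1 (AT4G33430, chromosome 4, 16086311 to 16090832, minus strand), the co-receptor of FLS2, EFR and other LRR receptors, was at 55.4, 56.6 and 56.5 CPM in pub2pub4, against 55.7, 63.7 and 54.6 CPM in wild type. These groups overlapped, the log2 fold change was -0.05, and its 95% interval ran from -0.22 to 0.13. SERK4, a close paralog of BAK1, averaged 42.7 ± 6.99 CPM in pub2pub4 and 56.7 ± 10.6 CPM in wild type (SD, n = 3 each). Its log2 fold change was -0.41 (95% interval -0.82 to -0.003, edgeR adjusted p 0.251). SERK1, SERK2 and SERK5 had log2 fold changes of -0.18, 0.07 and -0.18, with overlapping groups. Counts of SERK4 and SERK5, neighbouring genes, were fractional in all 6 libraries, so some reads were divided between similar sequences, which makes both values less certain. Per kilobase, SERK4 made up 30.1 ± 2.73% of the summed SERK transcript level in pub2pub4 and 35.9 ± 4.01% in wild type, and BAK1 made up 34.6 ± 2.29% in pub2pub4 and 31.9 ± 1.06% in wild type (SD, n = 3 each).

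BIR1 (AT5G48380, chromosome 5, 19604089 to 19607147, minus strand), a BAK1-interacting kinase that restrains cell death, was at 93.6, 106 and 109 CPM in pub2pub4, against 149, 154 and 137 CPM in wild type. Its groups were well separated, with little spread within either. It fell by 0.51 ± 0.08 (SE) on the log2 scale with an edgeR adjusted p of 0.0169, the smallest of the members and the call held in 3 of the 6 fits that omitted 1 library. BIR2, which keeps BAK1 from its receptors before elicitation, averaged 26.7 ± 2.32 CPM in pub2pub4 and 30.4 ± 1.32 CPM in wild type (SD, n = 3 each), with a log2 fold change of -0.19 and an interval from -0.38 to 0.01. AT1G27190, an LRR protein kinase gene of the same group, had a log2 fold change of -0.06, with an interval from -0.21 to 0.09. AT1G69990 had 1 count in wild type 2 and 0 in the other libraries, and was not tested.

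**Figure D2:**
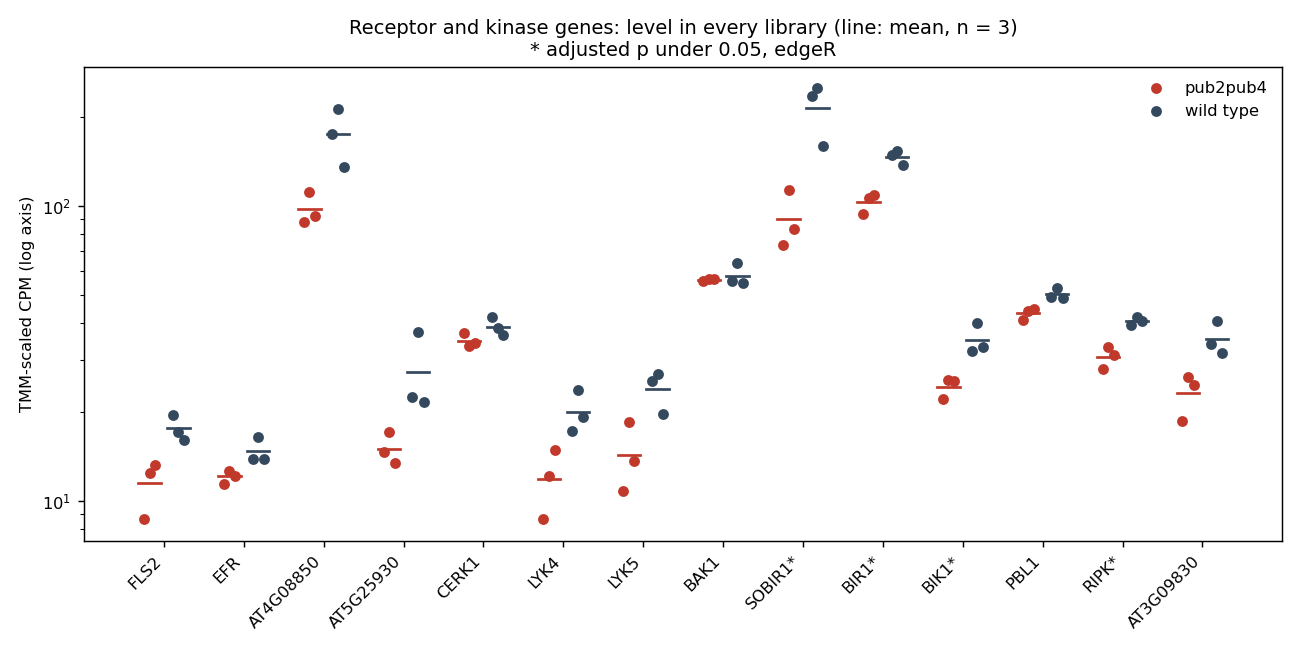
TMM-scaled CPM (log y axis) of 14 genes in every library, pub2pub4 in red and wild type in dark blue, with lines for the means of 3 libraries and asterisks for an edgeR adjusted p under 0.05. SOBIR1 ranges from 73.4 to 113 CPM in pub2pub4 and from 160 to 251 CPM in wild type, while the BAK1 groups overlap.

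Among the LRR receptors, 0 of 8 genes were called by edgeR and limma-voom, 4 were lower and 0 higher at an unadjusted p under 0.05, and DESeq2 called FLS2, AT4G08850 and AT5G25930 lower. FLS2 (AT5G46330, chromosome 5, 18791575 to 18795908, plus strand), the receptor of bacterial flagellin, was at 8.64, 12.4 and 13.2 CPM in pub2pub4, against 19.6, 17.1 and 16.1 CPM in wild type. The groups did not overlap, and pub2pub4 1 was lowest. The log2 fold change was -0.62 ± 0.16 (SE) with an edgeR adjusted p of 0.0762, and 0.0440 without pub2pub4 3. FLS2 shares 172 bases with AT5G46340 (RWA1) on the opposite strand, which averaged 23.2 ± 0.855 CPM in pub2pub4 and 23.9 ± 1.04 CPM in wild type (SD, n = 3 each). Expected counts of FLS2 and RWA1 were whole in all 6 libraries, unlike those of SOBIR1 and RAP. EFR (AT5G20480, chromosome 5, 6921509 to 6925901, plus strand), the receptor of bacterial elongation factor Tu, was at 11.4, 12.6 and 12.2 CPM in pub2pub4, against 13.8, 16.4 and 13.8 CPM in wild type. Its groups were narrowly separated, the log2 fold change was -0.28 ± 0.10 (SE) and the edgeR adjusted p was 0.168.

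AT4G08850 (chromosome 4, 5636479 to 5640952, minus strand), annotated as an LRR receptor-like kinase, was the most abundant of the separated LRR receptors. It was at 88.1, 111 and 92.4 CPM in pub2pub4, against 175, 213 and 135 CPM in wild type, with wild type 3 nearest the mutant. The log2 fold change was -0.84 ± 0.18 (SE) with an edgeR adjusted p of 0.0510, and 0.0154 without wild type 3. AT5G25930 (chromosome 5, 9050660 to 9054143, plus strand), an LRR kinase gene, was at 14.6, 17.1 and 13.4 CPM in pub2pub4, against 22.5, 37.4 and 21.7 CPM in wild type. Wild type 2 stood above the rest, the log2 fold change was -0.86 ± 0.24 (SE) and the edgeR adjusted p was 0.108. The Pep receptor PEPR1 averaged 49.6 ± 11.5 CPM in pub2pub4 and 62.0 ± 9.64 CPM in wild type, and its paralog PEPR2 6.37 ± 0.686 CPM in pub2pub4 and 6.31 ± 0.874 CPM in wild type (SD, n = 3 each). RLK7, a receptor of secreted stress peptides, had a log2 fold change of -0.23, with an interval from -0.48 to 0.03. IOS1, a kinase gene named for its part in oomycete infection, spread widely, with 8.21, 5.23 and 2.45 CPM in pub2pub4 and 9.93, 13.3 and 6.998 CPM in wild type. Its interval ran from -2.04 to 0.20, so these libraries leave its change poorly resolved.

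The LysM receptors also had 0 genes called by edgeR and limma-voom among 7 tested, with 2 lower and 0 higher at an unadjusted p under 0.05, and DESeq2 called those 2, LYK4 and LYK5, lower. CERK1 (AT3G21630, chromosome 3, 7615357 to 7618671, minus strand), the kinase that transmits the chitin signal, was at 37.1, 33.5 and 34.1 CPM in pub2pub4, against 41.9, 38.3 and 36.4 CPM in wild type. Its groups overlapped, and the log2 fold change was -0.16 with an interval from -0.34 to 0.02. LYK5 (AT2G33580, chromosome 2, 14219481 to 14222254, minus strand), the chitin-binding partner of CERK1, was at 10.7, 18.5 and 13.6 CPM in pub2pub4, against 25.4, 26.9 and 19.7 CPM in wild type. LYK4 (AT2G23770, chromosome 2, 10119973 to 10122479, minus strand), which acts with LYK5, was at 8.64, 12.1 and 14.9 CPM in pub2pub4, against 17.2, 23.6 and 19.2 CPM in wild type. Neither gene's groups overlapped, and pub2pub4 1 was the lowest library for both. Their log2 fold changes were each -0.75, with standard errors of 0.21 and edgeR adjusted p of 0.110 for LYK5 and 0.101 for LYK4. LYK3 had a log2 fold change of -0.17. The peptidoglycan-binding proteins LYM1 and LYM3 and the chitin-binding LYM2 had log2 fold changes of 0.17, 0.05 and -0.08, all with overlapping groups. LYK2 had at most 4.02 counts in any library, and was not tested.

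DORN1, the receptor of extracellular ATP, and FER, the receptor of RALF peptides, differed least. FER was at 206, 208 and 218 CPM in pub2pub4, against 218, 220 and 193 CPM in wild type, with a log2 fold change of 0.003 and an interval from -0.16 to 0.16. The interval of DORN1 ran from -0.22 to 0.25.

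Of the 7 cytoplasmic kinases, BIK1 and RIPK fell, where 1.97% of all tested genes were called lower. In 6 of the 7 every pub2pub4 library lay below every wild-type library, as in 12.7% of all tested genes. BIK1 (AT2G39660, chromosome 2, 16531527 to 16533986, plus strand), which is phosphorylated by receptor complexes and acts on the NADPH oxidase RBOHD, was at 22.2, 25.6 and 25.4 CPM in pub2pub4, against 32.0, 40.02 and 33.3 CPM in wild type. It fell by 0.53 ± 0.10 (SE) on the log2 scale with an edgeR adjusted p of 0.0337. PBL1 (AT3G55450, chromosome 3, 20557644 to 20560235, plus strand), the closest paralog of BIK1, was at 41.1, 43.9 and 44.5 CPM in pub2pub4, against 49.1, 52.7 and 48.6 CPM in wild type. This was a log2 change of -0.22 ± 0.07 (SE), not called (edgeR adjusted p 0.117). The separation of PBL1 was narrow, with the lowest wild-type library at 1.09 times the highest pub2pub4 library, against 1.25 times for BIK1.

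RIPK (AT2G05940, chromosome 2, 2287238 to 2289636, minus strand), which phosphorylates the immune regulator RIN4, was at 27.9, 33.3 and 31.1 CPM in pub2pub4, against 39.5, 42.0 and 40.7 CPM in wild type. It fell by 0.40 ± 0.08 (SE) on the log2 scale with an edgeR adjusted p of 0.0338. BIK1 and RIPK were each called in 1 of the 6 fits that omitted 1 library. AT3G09830 (chromosome 3, 3016490 to 3019103, plus strand), annotated as a protein kinase, was at 18.6, 26.2 and 24.6 CPM in pub2pub4, against 33.9, 40.5 and 31.7 CPM in wild type. Its fold change, -0.61 ± 0.15 (SE) on the log2 scale, was larger than that of BIK1, but its pub2pub4 libraries were more spread and the edgeR adjusted p was 0.0622, while DESeq2 called it (adjusted p 0.00294). AT5G03320, another protein kinase gene, and BSK1, a kinase associated with FLS2, had log2 fold changes of -0.21 and -0.18, with intervals from -0.40 to -0.02 and from -0.32 to -0.05. PBS1, a receptor-like cytoplasmic kinase, was the 1 kinase with a positive fold change, 0.12, and its groups overlapped.

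XLG2, an extra-large G alpha protein of the FLS2 and BIK1 complex, was at 25.4, 31.5 and 35.9 CPM in pub2pub4, against 42.4, 49.9 and 39.1 CPM in wild type. Its groups did not overlap, and the log2 fold change was -0.499 ± 0.141 (SE) with an edgeR adjusted p of 0.0984, while DESeq2 called it lower. AGB1, the G beta subunit, averaged 51.6 ± 0.900 CPM in pub2pub4 and 55.3 ± 0.954 CPM in wild type (SD, n = 3 each), also without overlap, at a log2 fold change of -0.10 (edgeR adjusted p 0.390).

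Levels of different genes were compared per length, as CPM per kilobase of the deposited gene length. SOBIR1 was at rank 3 of the members in pub2pub4 with 43.2 ± 10.01 CPM per kilobase, and at rank 1 in wild type with 103 ± 23.4 CPM per kilobase (SD, n = 3 each). RLK7 and FER were at 64.6 ± 1.65 and 67.5 ± 2.06 in pub2pub4 and at 75.5 ± 12.7 and 67.3 ± 4.72 in wild type on the same scale, and in wild type these neighbours in the order differed by less than the SD of RLK7. At the other end of the tested members, IOS1 and PEPR2 were at 1.84 and 1.88 CPM per kilobase in pub2pub4 and at 3.50 and 1.87 in wild type. The receptors FLS2 and EFR were near the low end, with 3.07 and 3.63 CPM per kilobase in pub2pub4 and 4.72 and 4.42 in wild type, well under their co-receptor BAK1 with 21.7 in pub2pub4 and 22.5 in wild type. The members together summed to 1512, 1631 and 1600 CPM in pub2pub4, against 2014, 2226 and 1802 CPM in wild type. Without SOBIR1 and AT4G08850 the sums were 1351, 1407 and 1425 CPM in pub2pub4, against 1603, 1762 and 1507 CPM in wild type, still without overlap.

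**Figure D3:**
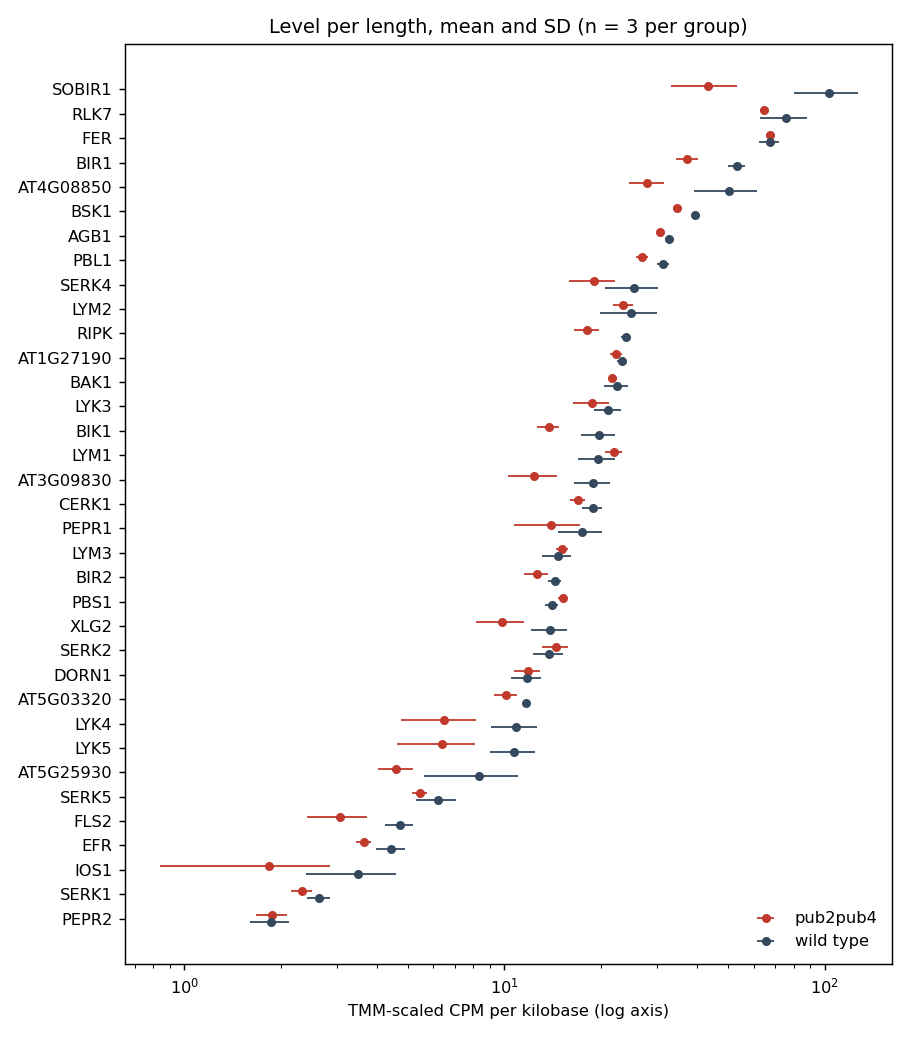
Mean level per kilobase with SD (log x axis, 3 libraries per group) for the 35 tested genes (y axis), ordered by wild type, with pub2pub4 in red above wild type in dark blue. SOBIR1 is at 43.2 in pub2pub4 (rank 3) and at 103 in wild type (rank 1), while FER and PEPR2 nearly coincide between the groups.

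Ratios of members that act together were computed in each library for 13 pairs, a choice made with the values known. SOBIR1 over BAK1, per kilobase, was 1.64, 2.48 and 1.82 in pub2pub4, against 5.25, 4.87 and 3.63 in wild type. FLS2 over BAK1 was 0.108, 0.152 and 0.162 in pub2pub4, against 0.244, 0.186 and 0.204 in wild type. BIK1 over PBL1 was 0.487, 0.527 and 0.514 in pub2pub4, against 0.590, 0.685 and 0.617 in wild type, a mean log2 difference of -0.31. For these 3 pairs, and also for EFR over BAK1, BIR1 over BAK1, PEPR1 over PEPR2 and XLG2 over AGB1, every pub2pub4 ratio lay below every wild-type ratio. For XLG2 over AGB1 the groups nearly touched, at 0.3699 in pub2pub4 3 and 0.3714 in wild type 3. Each of these 7 pairs had an exact two-sided permutation p of 0.1, the smallest that 3 against 3 libraries can give. After Benjamini-Hochberg adjustment over the 13 pairs it was 0.186. Full separation always gives this p of 0.1, so it adds nothing to the separation. The pairs over BAK1 share the same denominator and are not independent of each other. LYK5 over CERK1, at 0.267, 0.508 and 0.367 in pub2pub4 and 0.558, 0.647 and 0.497 in wild type, overlapped, as did LYK4 over CERK1, SERK4 over SERK5, SERK4 over BAK1, SERK2 over SERK1 and BIR1 over BIR2.

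**Figure D4:**
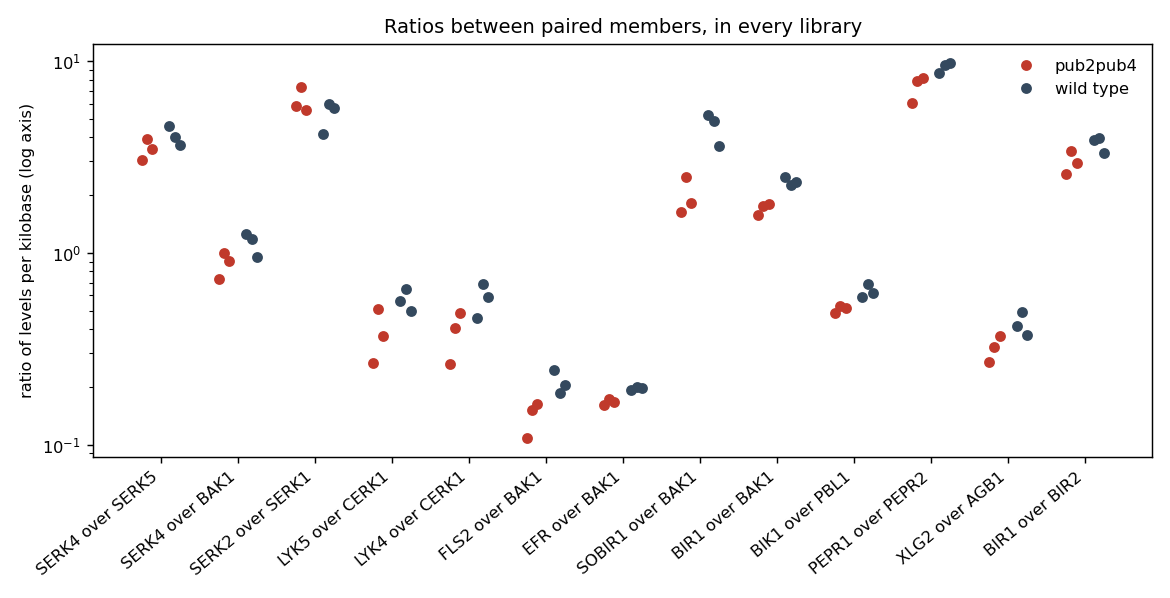
Ratio of the levels per kilobase (log y axis) of 13 pairs of members in every library, pub2pub4 in red and wild type in dark blue. SOBIR1 over BAK1 runs from 1.64 to 2.48 in pub2pub4 and from 3.63 to 5.25 in wild type, and the ratio of SERK2 over SERK1 overlaps between the groups.

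Libraries within a group also differed. Wild type 3 was the lowest wild-type library for 22 of the 35 tested members (62.9%), against 36.8% of all tested genes, and pub2pub4 1 was the lowest pub2pub4 library for 22 members, against 36.3%. Among the 17 members without overlap, wild type 3 was lowest for 10. The spread within wild type was widest for IOS1, AT5G25930, AT4G08850 and SOBIR1, whose highest wild-type library was 1.90, 1.73, 1.58 and 1.57 times the lowest.

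Other genes of receptor complexes, cytoplasmic kinases, G proteins and peptide ligands were listed beside the members. The list was chosen with earlier results of these data known, so it is no independent comparison. Of 51 listed, 44 were tested. Of these 4 fell in pub2pub4, 0 rose and 40 were not called, while 14 were lower and 1 was higher at an unadjusted p under 0.05, against 1.97% of all tested genes called lower and 9.41% lower at an unadjusted p under 0.05. Every pub2pub4 library lay below every wild-type library in 13 of the 44 (29.5%), and above in 2, against 12.7% and 13.4% of all tested genes. DESeq2 and limma-voom called 0 higher. The median log2 fold change was -0.11, against 0.01 over all tested genes. Of the 44, 33 were negative (75.0%), against 48.5% of all tested genes. AT5G49760, an LRR kinase gene, was at 98.4, 92.2 and 97.4 CPM in pub2pub4, against 141, 139 and 128 CPM in wild type (log2 -0.50 ± 0.06 SE, edgeR adjusted p 0.0116). AT1G51805, another LRR kinase gene, was at 90.9, 106 and 122 CPM in pub2pub4, against 161, 170.0 and 166 CPM in wild type (log2 -0.64 ± 0.10 SE, edgeR adjusted p 0.0178). In both, every pub2pub4 library lay below every wild-type library. WAK2, a wall-associated kinase, was at 60.1, 61.2 and 54.7 CPM in pub2pub4, against 102, 105 and 77.5 CPM in wild type, and fell by 0.69 on the log2 scale (edgeR adjusted p 0.0229). PLL4, a phosphatase gene of the POLTERGEIST family, was at 28.4, 29.998 and 32.8 CPM in pub2pub4, against 38.4, 38.1 and 39.3 CPM in wild type, and fell by 0.35 (edgeR adjusted p 0.0400). WAK2 shares 994 bases with AT1G21280 and LECRK-VI.2 shares 2456 bases with AT5G01542, so their reads cannot be told apart with certainty from those of these neighbours. AT1G51820, PSKR1, LECRK-VI.2 and PBL2 had the next smallest p-values, with log2 fold changes of -1.53, -0.65, -1.20 and -0.39 and edgeR adjusted p of 0.0513, 0.0516, 0.0958 and 0.108. The 7 G protein genes in this list had 0 called by edgeR, DESeq2 or limma-voom, and 0 at an unadjusted p under 0.05 in either direction. Without wild type 1 and without wild type 2 none of the 44 was called. Without pub2pub4 2 it was 1, and without wild type 3 it was 7, of which 1 was higher. Calls over the whole table also varied widely between fits that left out a library, as the last section gives.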

How the data were processed

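Leaf messenger RNA of 3 pub2pub4 and 3 wild-type libraries was sequenced on an Illumina HiSeq instrument, per the labels' protocols. The values the authors deposited are expected counts per gene, which are fractional where a read fits several genes (95.1% of values were whole to within 1e-06), with a length for each gene. TAIR10, RSEM 2.1.30 and TopHat2 2.1.0 are named, with no role stated, per the submitters' processing notes. Strand setting, annotation release and filters: not given in the sources used here.

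Expected counts were rounded to whole numbers. Genes were kept by the filterByExpr function of edgeR 4.0.16 (R 4.3.3). Its minima were the equivalent of about 10 counts in at least 3 libraries, the size of a group, and 15 in total. Counts were scaled by TMM and fitted by genotype alone with the robust quasi-likelihood method. The test is two-sided, with Benjamini-Hochberg adjustment over 19019 genes and a call at an adjusted p under 0.05. Standard errors and 95% intervals were derived from the F statistic. Alternatives were DESeq2 1.42.0, limma-voom (limma 3.58.1), other scalings and filters, no rounding, organelle genes left out, the replicate number as a block, and each library left out.

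The members, lists and pairs were chosen with earlier results of these data known. By rule, values in every library are given for members called, for members without overlap that differed by 0.5 or more on the log2 scale, and for FLS2, EFR, BAK1, CERK1 and PBL1. Among other pathway genes the rule names those called and the 4 next by unadjusted p. Values by library for XLG2, IOS1 and FER were added after they were seen. Of the 37 members, 31 are named in the table or a RefSeq synonym, and 6 are given by code. Positions and upstream sequences come from the RefSeq TAIR10.1 annotation, since the deposited table has no coordinates. In it 12 members overlap another gene, 8 of them one at 1 CPM or more in wild type. Protein sequences were not used here, and 1 upstream sequence is not reported here.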

Additional observations from a re-analysis of the deposited data

How the results depend on the processing

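PUB2 and PUB4 were called under every alternative, and no member was called higher under any of them. With DESeq2 the calls numbered 1460 over the whole table, 11 among the members (adding FLS2, AT4G08850, AT5G25930, LYK4, LYK5, AT3G09830 and XLG2) and 8 among the other pathway genes, against 848, 4 and 4. A replicate block gave 8 members and 10 other pathway genes called, all lower, adding AT4G08850, AT5G25930, LYK4 and AT3G09830 (edgeR adjusted p 0.0103, 0.0152, 0.0363 and 0.0256) to the 4 members. The replicate numbers were not taken as pairs in the main fit, because the deviations of same-numbered libraries correlated only weakly, at 0.126, 0.0642 and 0.152. For each pub2pub4 library this was still the highest of its correlations with the wild-type libraries. Wild type 2 correlated slightly better with pub2pub4 1 (0.0755) than with pub2pub4 2 (0.0642). Whether the numbers mark pairs was not tested. Without each library in turn the calls ran from 86 to 1210 over the whole table, from 0 to 6 among the members and from 0 to 7 among the other pathway genes. The log2 fold change of BAK1 was 0.021 without wild type 2 and -0.089 without wild type 3, the ends of its range, against -0.05 with all libraries. SOBIR1, BIR1, BIK1 and RIPK were called under all other alternatives with 6 libraries, except SOBIR1 with no filter on low counts. Beside DESeq2 and the block, AT4G08850 was called with median-of-ratios factors, with library totals alone and under the stricter filter (at least 5 CPM in 3 libraries), and AT3G09830 with library totals alone. The cause of these differences was not tested.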
